A study of Mus musculus with 6 samples.

Results

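The genes described here make and sense the prostaglandins and leukotrienes of injured tissue. They are 10 genes chosen by symbol in the deposited table of 23351 genes, and all 10 were found, each on a line of its own: Ptgs1, Ptgs2, Ptges, Ptgds, Hpgds, Ptger2, Ptger4, Alox5, Alox5ap and Lta4h. Expression came from 6 RNA sequencing libraries of C57BL/6 mouse repair tissue, namely periosteum with quadriceps taken where bone had been injured. There were 3 Clod-lip libraries, whose deposited columns are named clodronate, and 3 Empty-lip libraries, whose columns are named empty. Clodronate liposomes are taken up by phagocytes and kill them, and empty liposomes serve as their control. All 6 came from injured tissue of the same strain and from mice injected with liposomes, and no uninjured or uninjected tissue was analysed here. The sources used here give neither age or sex nor the time after injury or the dose. By its title the study looked for factors from macrophages in angiogenesis and healing, and the comparison asks which transcripts of this pathway differed when phagocytes were targeted.

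Prostaglandins and leukotrienes are lipid signals made from arachidonic acid, which phospholipases free from membranes. Cyclooxygenases, encoded by Ptgs1 and Ptgs2, turn it into prostaglandin H2, from which terminal synthases make prostaglandin E2 or D2, and the receptors EP2 and EP4 sense prostaglandin E2. In the other branch, 5-lipoxygenase works with its activating protein to make leukotriene A4, and Lta4h, the leukotriene A4 hydrolase, makes from it leukotriene B4, an attractant of neutrophils. Macrophages, neutrophils and mast cells are well known sources of these lipids in inflamed tissue, and prostaglandin E2 takes part in the repair of bone and muscle.

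No member passed the test between groups with all libraries, and the largest fitted log2 change was in Alox5ap. By limma on log2(FPKM + 1), adjusted over the 13408 genes of mean at least 0.5 FPKM, 0 of 10 members rose or fell at an adjusted p of 0.05, beside 4.05% of all genes tested. With a share that small, 0 of 10 does not set the members apart from other genes. At an unadjusted p under 0.05 there was 1 member, Alox5ap, against 21.8% of all genes tested. The median log2 change, Clod-lip minus Empty-lip, was -0.06 over the members and -0.01 over all genes tested. The authors' deposited table called 2 of the 8 members it tested, Ptgs2 as higher and Alox5ap as lower in Clod-lip, beside 12.2% of all 10783 genes they tested, 6.82% higher and 5.41% lower. FPKM divides fragments by transcript length and by library total, so levels of different genes can be set side by side. No label says whether each library is a different mouse, and the p-values cover only the spread among these libraries, which may be technical.

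A pair of libraries stood apart from the other libraries of their groups. Clod-lip 2 and Empty-lip 1 had the highest sums over 13 neutrophil markers in the table, 3550 FPKM for Clod-lip 2 and 1412 FPKM for Empty-lip 1. The other libraries had 934 and 1309 FPKM in Clod-lip 1 and 3, against 661 and 566 FPKM in Empty-lip 2 and 3. Macrophage markers, 11 in the table, summed to 4737, 6827 and 3944 FPKM in Clod-lip 1, 2 and 3, against 6954, 7209 and 7388 FPKM in Empty-lip 1, 2 and 3, so Clod-lip 2 lay close to the Empty-lip libraries. Of these macrophage markers 3 fell and 0 rose, and of the neutrophil markers 5 rose and 0 fell. Among all genes tested, 2.84% were called higher and 1.21% lower. The 5 were Camp, Ngp, Ltf, Elane and Mpo, so the neutrophil list did not rise as a whole. Cxcr2, Csf3r, Mmp9, Il1r2 and Trem1 had log2 changes between -0.33 and 0.004. S100a8, S100a9 and Retnlg had 0.95, 1.06 and 1.18 without passing. Of 6 monocyte markers 3 fell and 0 rose, and their sums were 120, 270 and 152 FPKM in Clod-lip 1, 2 and 3, against 432, 466 and 370 FPKM in Empty-lip 1, 2 and 3, with no overlap. The log2 changes of 5 were negative, but Nr4a1 on that list went the other way. It averaged 33.0 FPKM in Clod-lip against 14.7 FPKM in Empty-lip, with no overlap. Its log2 change was 1.20, without passing (limma adjusted p = 0.0655). All 10 muscle fibre markers rose in Clod-lip, with sums of 22019 to 24075 FPKM in Clod-lip against 10279 to 13879.5 FPKM in Empty-lip. Osteoblast markers, the check of the bone side of the tissue, summed to only 25.5 to 29.5 FPKM in Clod-lip, against 17.7 to 28.4 FPKM in Empty-lip. In bulk tissue, fewer cells of a type and less RNA per cell cannot be told apart. The steps between low FPKM values put the depth of the libraries between 0.994 and 1.12 times that of Empty-lip 1, if no other scaling was applied, and absolute depth was not derived.

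Alox5ap was by far the most abundant member and had the largest fitted log2 change, whereas by the ratio of mean FPKM Ptgs2 differed more (1.56). It encodes FLAP, the membrane protein that presents arachidonic acid to 5-lipoxygenase. Alox5ap had 166, 263 and 166 FPKM in Clod-lip 1, 2 and 3, against 287, 299 and 252 FPKM in Empty-lip 1, 2 and 3. Clod-lip 1 and 3 were below every Empty-lip library, while Clod-lip 2 lay within the Empty-lip range, so the groups overlapped. The means were 198 ± 56.0 FPKM in Clod-lip, against 279 ± 24.2 FPKM in Empty-lip (SD, n = 3 libraries each), a ratio of 0.710. The log2 change was -0.52 ± 0.18 (SE), with a 95% interval from -0.94 to -0.10 and a limma adjusted p of 0.147. The authors' deposited table gave a q-value of 0.00443 for this gene. Without Clod-lip 2 the log2 change was -0.74 ± 0.09 and Alox5ap passed (limma adjusted p = 0.00629), in a fit where 10.4% of all genes tested passed, 4.55% higher and 5.83% lower. Without Clod-lip 2 and Empty-lip 1 it also passed, at -0.72 ± 0.11 (limma adjusted p = 0.0197), beside 8.21% of all genes tested, 3.65% higher and 4.56% lower. In the other 5 fits that left out a single library it did not pass, with log2 changes from -0.59 to -0.41.

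Alox5, the 5-lipoxygenase itself, was the only member whose groups did not overlap. It had 6.76, 7.10 and 5.96 FPKM in Clod-lip 1, 2 and 3, against 8.66, 7.53 and 8.02 FPKM in Empty-lip 1, 2 and 3. Every Clod-lip library lay below every Empty-lip library, a pattern of 13.4% of all genes tested, beside 14.0% with no overlap in the other direction and 27.4% in either. The log2 change was -0.26 ± 0.11, with a 95% interval from -0.52 to 0.01 and a limma adjusted p of 0.238. Leaving out any single library kept it between -0.30 and -0.19.

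Lta4h was the least variable member. It had 42.8, 41.3 and 42.1 FPKM in Clod-lip 1, 2 and 3, against 44.7, 41.8 and 46.2 FPKM in Empty-lip 1, 2 and 3. The libraries of both groups lay within 1.12-fold of each other, and the groups overlapped. Its log2 change was -0.07 ± 0.07, with a 95% interval from -0.24 to 0.10 (limma adjusted p = 0.636). Its spread within groups was smaller than that of all but 3.67% of the genes tested.

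The ratio of FLAP to 5-lipoxygenase transcripts was compared directly. Alox5ap stood at 24.5, 37.0 and 27.9 times the FPKM of Alox5 in Clod-lip 1, 2 and 3, against 33.1, 39.7 and 31.4 times in Empty-lip 1, 2 and 3. The ratio was lowest in Clod-lip 1 and 3, and Clod-lip 2 lay among the Empty-lip values. The mean log2 ratio, of FPKM + 1, was 4.68 ± 0.31 in Clod-lip and 4.95 ± 0.17 in Empty-lip (SD, n = 3 each). The difference of -0.27 gave p = 0.3 by an exact two-sided permutation test, or 0.8 adjusted over the 4 ratios tested, where 3 against 3 libraries allow no p below 0.1.

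Alox5ap was also set against the macrophage markers. Per 1000 FPKM of the summed macrophage markers it had 35.0, 38.5 and 42.1 FPKM in Clod-lip 1, 2 and 3, against 41.2, 41.4 and 34.1 FPKM in Empty-lip 1, 2 and 3. The groups overlapped on this scale, with means of 38.5 ± 3.56 in Clod-lip and 38.9 ± 4.16 in Empty-lip (SD, n = 3 each), a ratio of 0.990. Alox5 on that scale averaged 1.33 ± 0.252 FPKM in Clod-lip, against 1.13 ± 0.106 FPKM in Empty-lip. The part of macrophages in these values was not tested. Lyz2, a lysozyme gene that granulocytes also express, was the largest part of that marker sum, averaging 3755 FPKM. By the root mean square difference of log2(FPKM + 1), centred over the 6 libraries, Alox5ap was nearest among 9428 genes to Fermt3 (0.04), which encodes the integrin activator kindlin-3 of blood cells, Coro1a (0.05), which encodes an actin binding protein of leukocytes, and Irgm2 (0.05), which encodes a GTPase induced by interferon. Alox5ap was added to that search after its values were seen.

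**Figure D1:**
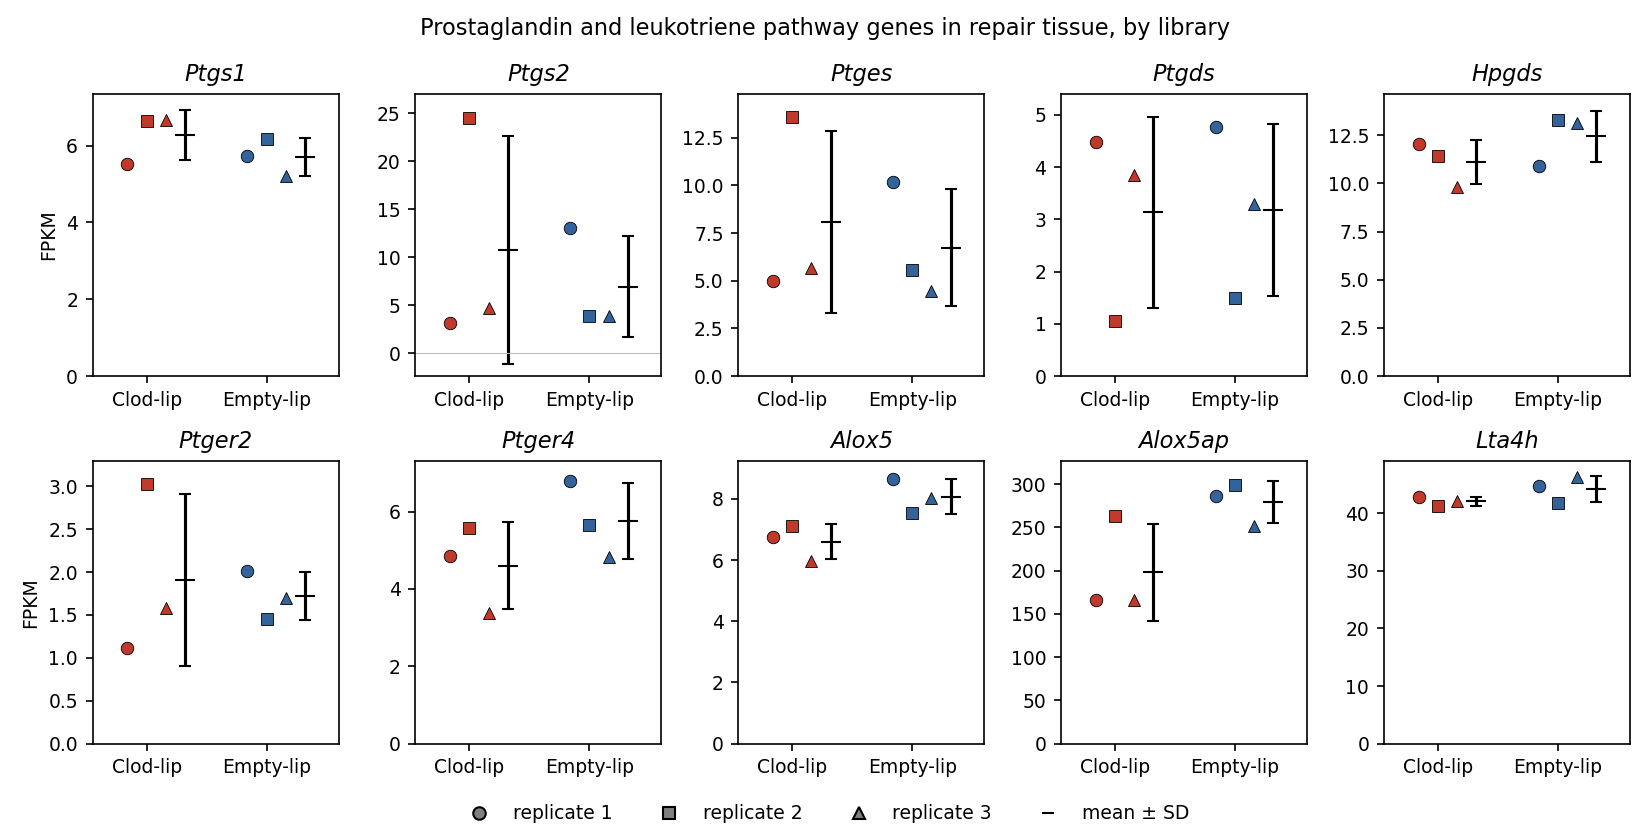
FPKM of each of the 10 genes in each library, with Clod-lip libraries in red on the left and Empty-lip libraries in blue on the right of each panel; symbols mark replicate numbers and black bars the mean ± SD of 3 libraries. For Ptgs2, Clod-lip 2 at 24.5 and Empty-lip 1 at 13.0 FPKM stand far above the other 4 libraries, while every Clod-lip value of Alox5 lies below every Empty-lip value.

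The inducible prostaglandin E2 branch varied far more within groups than between them. Ptgs2 encodes COX-2, the cyclooxygenase that inflammatory stimuli switch on, and Ptges encodes mPGES-1, the synthase that is commonly induced with it. Their upstream sequences are printed here because this pair was high in the same libraries. They come from RefSeq (GRCm38.p6) and run from 250 bases before to 30 bases after the RefSeq start of each gene, 5′ to 3′ on the strand of the gene. The Ptgs2 window lies at chr1:150099781-150100060 on the plus strand and the Ptges window at chr2:30903268-30903547 on the minus strand. Capitals mark matches, on either strand, to the motifs searched.
Ptgs2: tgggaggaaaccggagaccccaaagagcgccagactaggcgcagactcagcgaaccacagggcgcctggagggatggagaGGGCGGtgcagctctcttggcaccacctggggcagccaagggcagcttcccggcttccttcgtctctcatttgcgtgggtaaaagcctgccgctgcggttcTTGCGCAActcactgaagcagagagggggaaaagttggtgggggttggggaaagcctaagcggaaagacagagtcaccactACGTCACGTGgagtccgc
Ptges: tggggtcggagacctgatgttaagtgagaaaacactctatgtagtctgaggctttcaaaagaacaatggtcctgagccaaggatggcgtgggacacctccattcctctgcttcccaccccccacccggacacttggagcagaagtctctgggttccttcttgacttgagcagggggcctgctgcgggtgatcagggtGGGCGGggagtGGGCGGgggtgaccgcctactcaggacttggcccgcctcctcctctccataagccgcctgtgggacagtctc

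The motifs searched were TATAAA (a core promoter box), CACGTG (E-box), ACGTCA (core of the cAMP response element), TTGCNNAA (C/EBP), GGGCGG (Sp1), TGANTCA (AP-1) and the NF-kB consensus. The Ptgs2 window held GGGCGG from base -170 to -165, TTGCGCAA from -69 to -62, ACGTCA from 13 to 18 and CACGTG from 17 to 22, counted from the RefSeq start, and ACGTCA and CACGTG overlap. That start, base 150100031, lies 93 bases upstream of the start the deposited table gives for Ptgs2, so the whole Ptgs2 window is upstream of the deposited start; for Ptges the starts are the same. The Ptges window held GGGCGG from -53 to -48 and from -42 to -37 and no match to the others. Of the 32851 windows of the same length, 34.7% held GGGCGG, 10.4% TTGCNNAA, 7.26% ACGTCA and 6.79% CACGTG. Of the 9 members with a window, 4 held GGGCGG (Alox5, Ptger4, Ptges and Ptgs2), 2 held TTGCNNAA (Hpgds and Ptgs2), and Ptgs2 alone held ACGTCA and CACGTG. The Ptgds window alone held TGANTCA, found in 7.46% of windows, and the NF-kB consensus, found in 7.94%. TATAAA matched 0 of the 9 windows, against 13.1% of all. These matches describe letters only, and binding was not measured.

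Ptgs2 had 3.11, 24.5 and 4.73 FPKM in Clod-lip 1, 2 and 3, against 13.0, 3.86 and 3.88 FPKM in Empty-lip 1, 2 and 3. Clod-lip 2 and Empty-lip 1 were high and the other 4 libraries low, and the highest library stood 7.88-fold above the lowest. The means were 10.8 ± 11.9 FPKM in Clod-lip, against 6.93 ± 5.29 FPKM in Empty-lip (SD, n = 3 each), with a log2 change of 0.28 ± 0.70, a 95% interval from -1.35 to 1.91 and a limma adjusted p of 0.863. The spread of Ptgs2 within groups was larger than that of 99.4% of the genes tested. The authors' deposited table called Ptgs2 higher in Clod-lip, with a q-value of 0.0121. Without Clod-lip 2 the sign was the opposite, at -0.52 ± 0.47 (limma adjusted p = 0.550), and without Clod-lip 2 and Empty-lip 1 the log2 change was -0.01 ± 0.21 (limma adjusted p = 0.990).

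Ptges followed the same libraries with a smaller range. It had 4.98, 13.6 and 5.66 FPKM in Clod-lip 1, 2 and 3, against 10.2, 5.57 and 4.44 FPKM in Empty-lip 1, 2 and 3. Clod-lip 2 and Empty-lip 1 were again highest, and the groups overlapped. The log2 change was 0.18 ± 0.38, with a 95% interval from -0.71 to 1.07 (limma adjusted p = 0.839), and it was -0.22 without Clod-lip 2 and -0.04 without Empty-lip 3.

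The neutrophil marker sum was highest in the 2 libraries where Ptgs2 and Ptges were highest. Per 1000 FPKM of those markers, Ptgs2 had 3.33, 6.90 and 3.61 FPKM in Clod-lip 1, 2 and 3, against 9.23, 5.85 and 6.87 FPKM in Empty-lip 1, 2 and 3. Ptges on that scale had 5.33, 3.83 and 4.33 FPKM in Clod-lip 1, 2 and 3, against 7.22, 8.43 and 7.86 FPKM in Empty-lip 1, 2 and 3. Its groups did not overlap on that scale, but the share of all genes that would separate on it was not derived. Most of that marker sum was S100a8 and S100a9, averaging 626 and 544 FPKM. S100a8 averaged 853 FPKM in Clod-lip against 399 FPKM in Empty-lip, and S100a9 764 against 325 FPKM, with overlapping groups. The part of neutrophils in these values was not tested.

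The genes nearest to Ptgs2 in pattern were Slpi (root mean square difference 0.12), which encodes a secreted inhibitor of leukocyte proteases, Ccrl2 (0.17), which encodes a receptor for chemerin, and Cd274 (0.20), which encodes PD-L1. Slpi had 25.9, 216 and 39.8 FPKM in Clod-lip 1, 2 and 3, against 99.3, 33.4 and 36.8 FPKM in Empty-lip 1, 2 and 3, the same order of high and low libraries at a higher level. Those nearest to Ptges were Ier3 (0.13), an early response gene, Fas (0.15), the death receptor, and Irak3 (0.15), a restraint on Toll-like receptor signalling.

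The list of inducers and regulators of the cyclooxygenase step held 6 genes, and in 4 of them, Il1b, Tnf, Cebpb and Nfkb1, Clod-lip 2 and Empty-lip 1 were the highest libraries, a pattern noticed after the values were seen. Il1b, the cytokine interleukin-1 beta, had 15.1, 248 and 21.4 FPKM in Clod-lip 1, 2 and 3, against 109, 29.3 and 23.2 FPKM in Empty-lip 1, 2 and 3. Tnf had 3.44, 56.3 and 6.65 FPKM in Clod-lip 1, 2 and 3, against 17.4, 4.92 and 3.65 FPKM in Empty-lip 1, 2 and 3, and is named here after its values were seen. Neither passed between groups (limma adjusted p = 0.986 for Il1b and 0.747 for Tnf). Anxa1, which encodes annexin A1, an inhibitor of phospholipase A2, went the other way: it had 366, 339 and 353 FPKM in Clod-lip 1, 2 and 3, against 344, 410 and 375 FPKM in Empty-lip 1, 2 and 3, lowest in Clod-lip 2 and Empty-lip 1 (limma adjusted p = 0.610). Nr4a2, a nuclear receptor gene, was highest in Clod-lip 3 at 2.59 FPKM, with 2.08 FPKM in Clod-lip 2. The formyl peptide receptor gene Fpr2, which also serves as a receptor for lipoxin, had 4.72, 43.0 and 10.5 FPKM in Clod-lip 1, 2 and 3, against 23.6, 9.94 and 7.34 FPKM in Empty-lip 1, 2 and 3, again highest in Clod-lip 2 and Empty-lip 1 (limma adjusted p = 0.949).

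**Figure D2:**
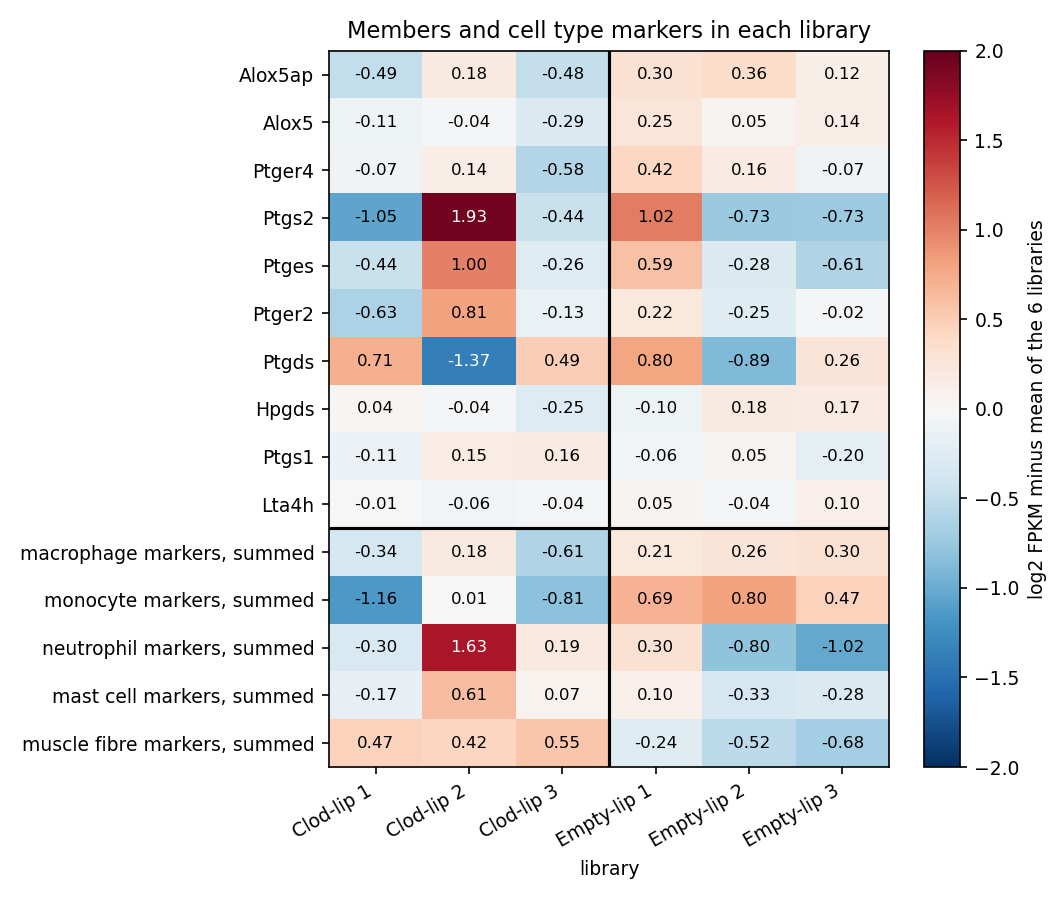
Colour and numbers give log2 FPKM minus the mean of the 6 libraries, for each of the 10 genes (above the line) and for the summed FPKM of 5 cell type marker lists (below it), with Clod-lip libraries left of Empty-lip libraries. Ptgs2 and Ptges are highest in Clod-lip 2 (1.93 and 1.00) and Empty-lip 1 (1.02 and 0.59), and Alox5ap is lowest in Clod-lip 1 and 3 (-0.49 and -0.48).

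Ptgs1, which encodes the constitutive cyclooxygenase COX-1, showed no such libraries. It had 5.52, 6.63 and 6.66 FPKM in Clod-lip 1, 2 and 3, against 5.74, 6.17 and 5.20 FPKM in Empty-lip 1, 2 and 3. All 6 libraries lay within 1.28-fold, and the groups overlapped. Between groups the log2 change was 0.12 ± 0.12, with a 95% interval from -0.17 to 0.40 (limma adjusted p = 0.643). COX-1 is the cyclooxygenase of platelets. The 6 platelet and megakaryocyte markers summed to 575 to 898 FPKM in Clod-lip, against 1008 to 1085 FPKM in Empty-lip. Most of that sum was Pf4, a gene that macrophages can also express, and Gp6 was listed at 0 in all libraries. Of these markers 4 were tested and 0 passed, so the list did not fall as a whole. Pf4 and Ppbp had log2 changes of -0.58 and -0.93. Itga2b and Gp1bb, averaging 1.06 and 0.815 FPKM, had -0.05 and 0.38. Per 1000 FPKM of these markers Ptgs1 had 9.59, 7.39 and 10.7 FPKM in Clod-lip 1, 2 and 3, against 5.53, 5.69 and 5.16 FPKM in Empty-lip 1, 2 and 3. The groups did not overlap on that scale, whose marker sum was itself lower in Clod-lip with no overlap. The share of all genes that would separate on it was not derived. The part of platelets in these values was not tested.

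The balance of the cyclooxygenases was compared as a ratio. Ptgs2 stood at 0.564, 3.70 and 0.710 times the FPKM of Ptgs1 in Clod-lip 1, 2 and 3, against 2.27, 0.626 and 0.746 times in Empty-lip 1, 2 and 3. Ptgs2 exceeded Ptgs1 only in Clod-lip 2 and Empty-lip 1. The difference in mean log2 ratio was 0.17 (exact two-sided permutation p = 0.9), and the p was 1 adjusted over the 4 ratios.

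The prostaglandin D2 synthases were both expressed, Hpgds at the higher level. Hpgds encodes the haematopoietic synthase, found in mast cells and some macrophages, and Ptgds the lipocalin-type synthase, best known from brain coverings, heart and fat. Hpgds had 12.1, 11.4 and 9.83 FPKM in Clod-lip 1, 2 and 3, against 10.9, 13.3 and 13.2 FPKM in Empty-lip 1, 2 and 3. The groups overlapped through Empty-lip 1, with a log2 change of -0.15 ± 0.12 and a 95% interval from -0.43 to 0.13 (limma adjusted p = 0.521). Mast cell markers, 10 in the table, summed to 35.9 to 61.8 FPKM in Clod-lip, against 32.2 to 43.3 FPKM in Empty-lip, and 0 of the 8 tested passed. The highest sum of each group, in Clod-lip 2 and Empty-lip 1, rested much on Hdc. That gene had 1.40, 29.9 and 3.12 FPKM in Clod-lip 1, 2 and 3, against 13.3, 6.70 and 5.30 FPKM in Empty-lip 1, 2 and 3.

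Ptgds had 4.49, 1.06 and 3.86 FPKM in Clod-lip 1, 2 and 3, against 4.77, 1.49 and 3.30 FPKM in Empty-lip 1, 2 and 3. Each group had 1 low library, Clod-lip 2 and Empty-lip 2, and the highest library stood 4.49-fold above the lowest. Ptgds had a log2 change of -0.06 ± 0.43, with a 95% interval from -1.05 to 0.94 (limma adjusted p = 0.961). The sign rested on single libraries: it was 0.39 without Clod-lip 2, 0.22 without Empty-lip 1, -0.39 without Empty-lip 2, and 0.66 ± 0.29 without Clod-lip 2 and Empty-lip 1 (limma adjusted p = 0.232). The nearest genes in pattern were Myl4 (0.27), an embryonic and atrial myosin light chain gene, Cdkn1c (0.29), a cell cycle inhibitor gene, and Sncg (0.29), which encodes gamma-synuclein.

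Hpgds stood at 2.69, 10.7 and 2.55 times the FPKM of Ptgds in Clod-lip 1, 2 and 3, against 2.29, 8.92 and 3.98 times in Empty-lip 1, 2 and 3. The ratio was highest in the 2 libraries where Ptgds was low. The groups overlapped, with a difference in mean log2 ratio of -0.10 (exact two-sided permutation p = 1).

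The receptors for prostaglandin E2 were at low levels. Ptger4, which encodes EP4, had 4.84, 5.58 and 3.39 FPKM in Clod-lip 1, 2 and 3, against 6.79, 5.65 and 4.82 FPKM in Empty-lip 1, 2 and 3. Clod-lip 3 was lowest and Empty-lip 1 highest, and the other 4 libraries were interleaved. Ptger4 had a log2 change of -0.28 ± 0.18, with a 95% interval from -0.71 to 0.15 (limma adjusted p = 0.434), and it stayed negative, from -0.41 to -0.11, when any single library was left out.

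Ptger2, which encodes EP2, was the least abundant member. It had 1.12, 3.03 and 1.58 FPKM in Clod-lip 1, 2 and 3, against 2.01, 1.45 and 1.70 FPKM in Empty-lip 1, 2 and 3. Clod-lip 2 was highest and Empty-lip 1 next, the libraries where Ptgs2 and Ptges were also high. Ptger2 had a log2 change of 0.05 ± 0.25, with a 95% interval from -0.53 to 0.62 (limma adjusted p = 0.939), and it was -0.22 without Clod-lip 2. Ptger4 stood at 4.33, 1.84 and 2.15 times the FPKM of Ptger2 in Clod-lip 1, 2 and 3, against 3.38, 3.89 and 2.83 times in Empty-lip 1, 2 and 3. The difference in mean log2 ratio was -0.33 (exact two-sided permutation p = 0.4), and the p was 0.8 adjusted over the 4 ratios.

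**Figure D3:**
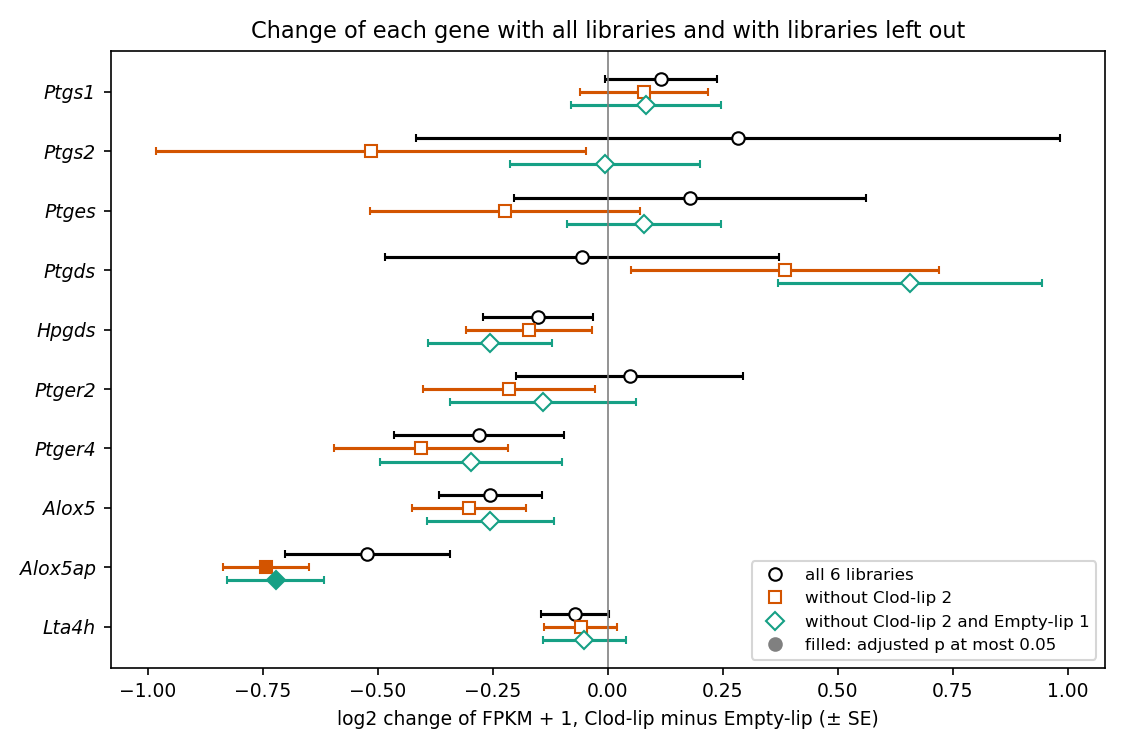
Log2 change of FPKM + 1, Clod-lip minus Empty-lip, with its SE for each of the 10 genes, from all 6 libraries (circles), leaving out Clod-lip 2 (squares), and leaving out that library with Empty-lip 1 (diamonds); filled symbols passed an adjusted p of 0.05. Only Alox5ap has filled symbols, at -0.74 and -0.72, and Ptgs2 crosses 0 between its settings.

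In order of mean level over the 6 libraries, the members ran from Alox5ap at 239 FPKM and Lta4h at 43.1 FPKM to Hpgds at 11.8, Ptgs2 at 8.86, Ptges at 7.41, Alox5 at 7.34, Ptgs1 at 5.99, Ptger4 at 5.18, Ptgds at 3.16 and Ptger2 at 1.81 FPKM. Alox5ap lay above Lta4h, and Lta4h above Hpgds, in all 6 libraries and with no overlap of their ranges. From Hpgds down, every neighbouring pair in this order overlapped. Alox5ap was more abundant than 97.3% of the genes tested and Ptger2 than 12.6%. On mm10, as deposited and counted from 1, Alox5ap lies on chromosome 5 from 149265058 to 149288047, Alox5 on chromosome 6 from 116410071 to 116461178, Ptgs2 on chromosome 1 from 150100124 to 150108012 and Ptges on chromosome 2 from 30889471 to 30903297. In the GENCODE annotation of that build, 3 members share exonic bases with genes on the other strand: 189 bases of Alox5ap, 148 of Ptgs1, and 144 and 246 of Ptger2. The sources used here do not say whether fragments were counted by strand, so reads of such pairs may not be told apart.

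Among the other genes of the pathway, 7 passed between groups. The authors' deposited table called 7 higher and 10 lower of the 43 it tested, beside 6.82% higher and 5.41% lower of all genes it tested. The list held 72 symbols, of which 70 were in the table and 54 were tested. Of these, 4 rose and 3 fell, 47 not passing, and the median log2 change was 0.06 against -0.01 over all genes tested. Over all genes, 2.84% were called higher and 1.21% lower. The number passing moved with the libraries used: 17 passed without Clod-lip 2, where 10.4% of all genes tested did, and 15 when Empty-lip 1 was left out too, where 8.21% did, whereas 0 or 1 passed when any other library was left out. The log2 changes of the 7 kept their direction in those fits, from 0.77 to 0.94 for Pla2g16 and from -1.02 to -0.71 for Dpep2 when single libraries were left out.

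Hpgd, which encodes the dehydrogenase that inactivates prostaglandin E2, rose in Clod-lip. It had 11.7, 10.3 and 9.89 FPKM in Clod-lip 1, 2 and 3, against 6.19, 7.19 and 6.07 FPKM in Empty-lip 1, 2 and 3. All Clod-lip libraries lay above all Empty-lip libraries, with a log2 change of 0.63 ± 0.11 and a limma adjusted p of 0.0310. Of 6 genes of prostanoid transport and breakdown it was the only one to pass, beside Cbr2, a carbonyl reductase gene, at 150 ± 37.2 FPKM in Clod-lip, against 208 ± 42.6 FPKM in Empty-lip (limma adjusted p = 0.210), and Ptgr1, a prostaglandin reductase gene, at 24.9 ± 6.56 FPKM in Clod-lip, against 30.7 ± 3.92 FPKM in Empty-lip (SD, n = 3 each).

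Among 12 tested genes of precursor release and lipid hydrolysis, 2 rose and 1 fell. Pla2g16, a phospholipase gene highly expressed in fat, had 18.2, 19.1 and 18.0 FPKM in Clod-lip 1, 2 and 3, against 11.1, 8.52 and 9.74 FPKM in Empty-lip 1, 2 and 3, and rose by 0.86 ± 0.11 on the log2 scale (limma adjusted p = 0.0152). Pnpla2, the triglyceride lipase of fat and muscle, rose by 0.58 ± 0.10 on the log2 scale (limma adjusted p = 0.0280). Adipocyte markers, none of 5 passing, summed to 864 to 1126 FPKM in Clod-lip, against 605 to 792 FPKM in Empty-lip. Most of that sum was Fabp4, averaging 802 FPKM. Adipoq and Cidec overlapped between groups, whereas Fabp4, Plin1 and Lep were higher in Clod-lip with no overlap. Muscle fibre markers were also higher in Clod-lip, as given above. The part of fat and muscle fibres in these rises was not tested. Pla2g15, a lysosomal phospholipase gene, had 29.0, 32.8 and 25.9 FPKM in Clod-lip 1, 2 and 3, against 41.5, 38.5 and 41.6 FPKM in Empty-lip 1, 2 and 3. It fell, at a log2 change of -0.46 ± 0.10 (limma adjusted p = 0.0490). Pla2g7, which encodes the platelet-activating factor hydrolase made by macrophages, had 50.6, 115 and 45.9 FPKM in Clod-lip 1, 2 and 3, against 134, 97.7 and 103 FPKM in Empty-lip 1, 2 and 3, and did not pass (limma adjusted p = 0.222).

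Leukotriene genes included 1 that rose, 1 that fell and 2 receptors that did not pass by a small margin. Dpep1 and Dpep2 encode dipeptidases that turn leukotriene D4 into E4, and they went in opposite directions. Dpep1 averaged 30.7 ± 4.34 FPKM in Clod-lip, against 18.0 ± 3.47 FPKM in Empty-lip (SD, n = 3 each; log2 change 0.74 ± 0.15, limma adjusted p = 0.0441). Dpep2 had 10.1, 13.5 and 8.47 FPKM in Clod-lip 1, 2 and 3, against 17.2, 20.9 and 21.5 FPKM in Empty-lip 1, 2 and 3 (log2 change -0.85 ± 0.17, limma adjusted p = 0.0396). In neither gene did the groups overlap. Mgst3, a microsomal glutathione transferase gene, had 116, 74.0 and 71.9 FPKM in Clod-lip 1, 2 and 3, against 38.8, 62.3 and 48.9 FPKM in Empty-lip 1, 2 and 3, higher with no overlap (limma adjusted p = 0.0958). Cotl1, whose product binds actin and 5-lipoxygenase, had 239, 301 and 217 FPKM in Clod-lip 1, 2 and 3, against 319, 417 and 367 FPKM in Empty-lip 1, 2 and 3, lower with no overlap (limma adjusted p = 0.0807). The authors' deposited table called Mgst3 higher and Cotl1 lower in Clod-lip, each with a q-value of 0.000928.

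Ltb4r1, the high affinity receptor for leukotriene B4, had 3.58, 11.5 and 6.41 FPKM in Clod-lip 1, 2 and 3, against 19.5, 17.3 and 15.4 FPKM in Empty-lip 1, 2 and 3. Every Clod-lip value lay below every Empty-lip value, with a log2 change of -1.29 ± 0.32 and a limma adjusted p of 0.0694. Cysltr1, a receptor for leukotrienes C4 and D4, had 4.44, 6.92 and 5.21 FPKM in Clod-lip 1, 2 and 3, against 13.1, 9.89 and 8.14 FPKM in Empty-lip 1, 2 and 3. Its groups did not overlap either, with a log2 change of -0.80 ± 0.20 and a limma adjusted p of 0.0692. The authors' deposited table called both lower in Clod-lip, each with a q-value of 0.000928. Both passed without Clod-lip 2, where 10.4% of all genes tested did, but in no other fit that left out a single library. Clod-lip 2 was the Clod-lip library nearest to Empty-lip in both genes. The monocyte and macrophage marker sums given above were also lower in Clod-lip, and their part in these values was not tested.

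In the remaining groups of the list, 1 gene passed. Cmklr1, the chemerin receptor, which has also been described as a receptor for resolvin E1, had 19.7, 28.2 and 22.3 FPKM in Clod-lip 1, 2 and 3, against 34.8, 37.6 and 38.5 FPKM in Empty-lip 1, 2 and 3, and fell, at -0.65 ± 0.13 on the log2 scale (limma adjusted p = 0.0405). None of 9 terminal prostanoid synthases passed. Tbxas1, the thromboxane synthase gene, came nearest and was lower in Clod-lip (log2 change -0.55 ± 0.13, limma adjusted p = 0.0564). Gstm2 followed, higher in Clod-lip (0.39 ± 0.09, limma adjusted p = 0.0568). In neither did the groups overlap. With single libraries left out, both passed only without Clod-lip 2. The authors' deposited table called Tbxas1 lower, with a q-value of 0.00443, and did not call Gstm2. Ptges3, the most abundant of the 9, had 93.9 ± 5.21 FPKM in Clod-lip, against 113 ± 4.32 FPKM in Empty-lip (limma adjusted p = 0.0971). Fam213b, a prostamide and prostaglandin F synthase gene, had 64.6 ± 10.1 FPKM in Clod-lip, against 52.1 ± 7.95 FPKM in Empty-lip (limma adjusted p = 0.266). None of 6 tested genes of the prostanoid receptor group, which counts Ptgfrn, passed either. Ptger1, which encodes EP1, had 8.91 ± 0.05 FPKM in Clod-lip, against 9.44 ± 0.80 FPKM in Empty-lip (SD, n = 3 each). Ptger3, which encodes EP3, had 1.35 ± 0.383 FPKM in Clod-lip, against 0.446 ± 0.246 FPKM in Empty-lip (limma adjusted p = 0.106). Tbxa2r, the thromboxane receptor gene, had 1.66 ± 0.625 FPKM in Clod-lip, against 0.544 ± 0.346 FPKM in Empty-lip (limma adjusted p = 0.126). Both were higher with no overlap, at low levels that the authors did not test. With single libraries left out, Tbxa2r passed only without Clod-lip 2, and Ptger3 in no such fit. Ptgfrn, which encodes a regulator of the prostaglandin F receptor, had 30.5 ± 0.941 FPKM in Clod-lip, against 29.7 ± 1.38 FPKM in Empty-lip.

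**Figure D4:**
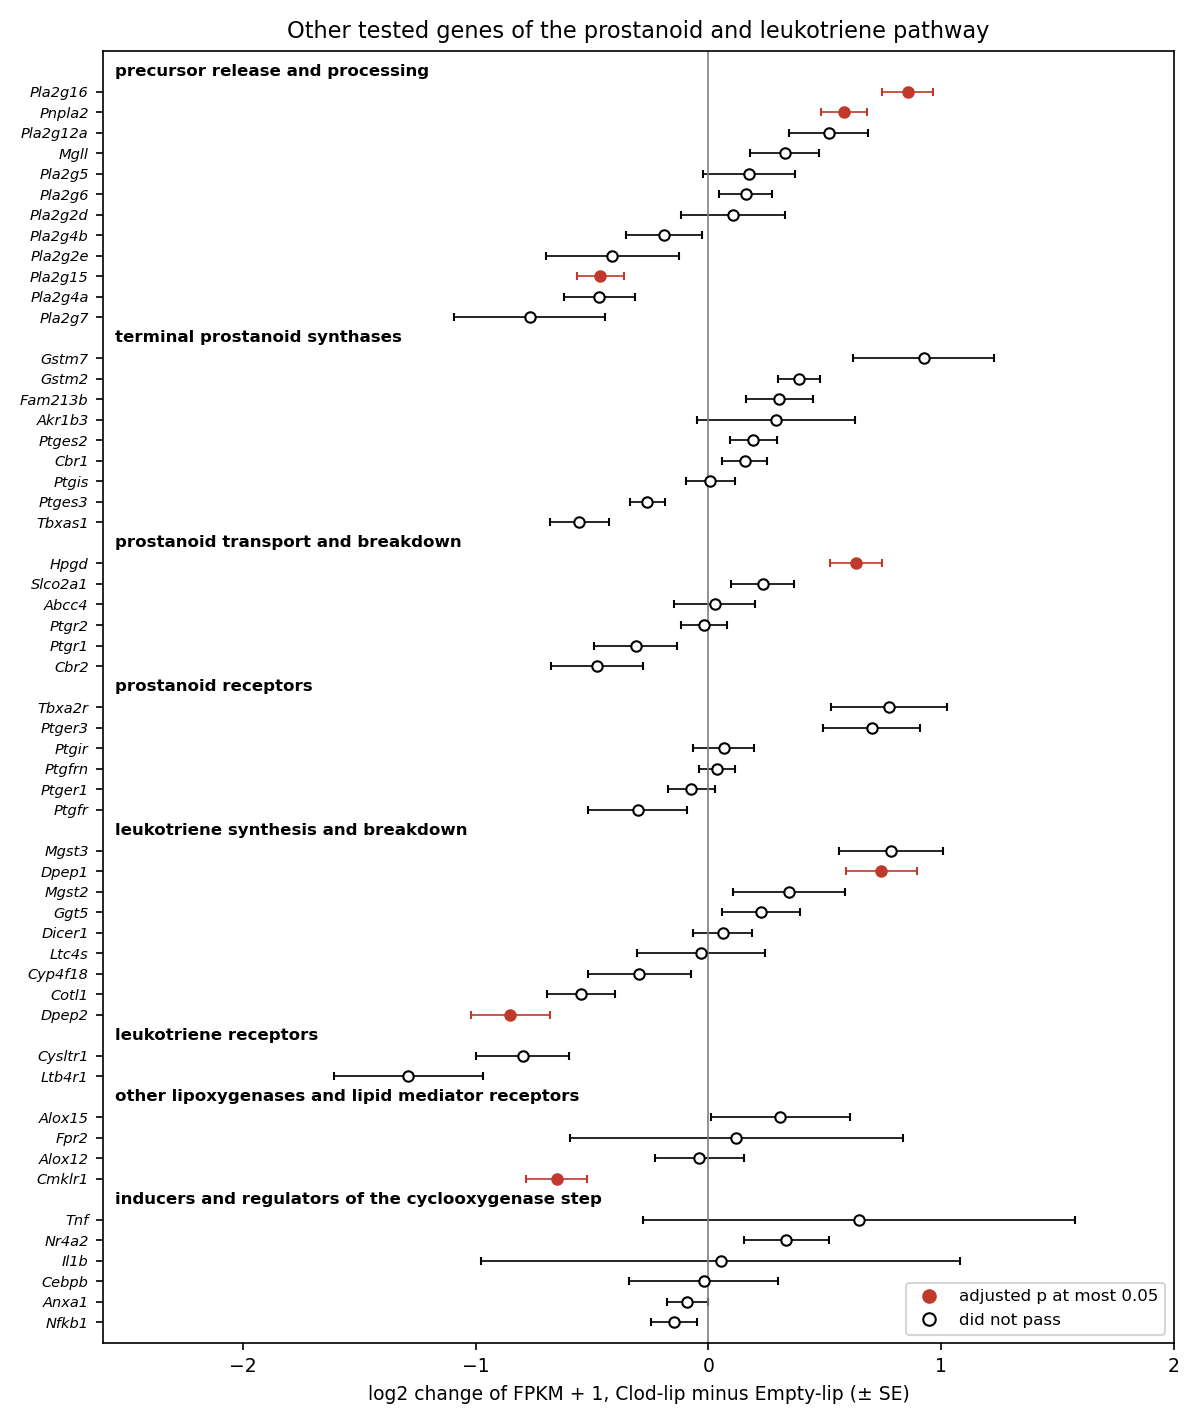
Log2 change of FPKM + 1, Clod-lip minus Empty-lip, with its SE for 54 other tested genes, grouped by role; filled red circles passed an adjusted p of 0.05. The 4 that rose are Pla2g16, Pnpla2, Hpgd and Dpep1 and the 3 that fell are Pla2g15, Dpep2 and Cmklr1, while both leukotriene receptors lie below 0 without passing.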

How the data were processed

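RNA was sequenced from 6 samples of mouse repair tissue, 3 Clod-lip and 3 Empty-lip, grouped by their titles. TopHat and mm10 were used, per the submitters' processing notes, and the sources used here do not say which tool made the values. Each library has FPKM as deposited by the authors, with a p-value and a q-value per gene from their own comparison. FPKM are not counts, so differences were tested with limma 3.58.1 (R 4.3.3) on log2(FPKM + 1), the prior variance following mean level (a trend), over 13408 genes averaging 0.5 FPKM or more. P-values were Benjamini-Hochberg adjusted and called at 0.05. Changes on this scale understate those of low genes. The fit was tested on simulated data. Columns were matched to samples by the group word and the number in the labels' descriptions. Ratios used exact permutation tests. The members, lists and tests were chosen with earlier results of these data known, the left-out pair of libraries too. Named genes are the members, passing pathway genes, the 2 most abundant genes per pathway group, and the 3 nearest genes to members ranging over at least 1 on the log2 scale. Tbxas1, Gstm2, Ptger3, Tbxa2r and some marker genes were also named after their values were seen. Alternatives were pseudocounts of 0.1 and 0.5, no filter, a filter at 5 FPKM, quantile and upper quartile scaling, no trend, a replicate block, and libraries left out. Of the 10 members, 9 matched a RefSeq promoter.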

Additional observations from a re-analysis of the deposited data

How the results depend on the processing

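The number of genes called, 543, was 170 with the replicate number as a block, 312 with no filter on low values, 284 without the trend and 1101 without Empty-lip 1 and Clod-lip 2, and ran from 2 to 1392 when single libraries were left out. Of the members, 0 passed in every fit except those without Clod-lip 2 and without Empty-lip 1 and Clod-lip 2, where 1 passed, Alox5ap; leaving out single libraries gave 0 to 1. Of the other pathway genes, 7 in the full comparison, 1 passed with the replicate block, 2 with no filter, 2 without trend and 15 without Empty-lip 1 and Clod-lip 2, and 0 to 17 with single libraries left out. The labels do not say whether replicate numbers pair the libraries. Deviations of same-numbered libraries correlated over genes at -0.080, -0.040 and 0.085, which cannot settle whether single genes followed such a pairing. The highest of the 9 correlations, 0.136, joined Clod-lip 2 and Empty-lip 1.

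Signs turned for 4 members, Ptgs2, Ptges, Ptgds and Ptger2. With single libraries left out, log2 changes ran from -0.52 to 0.80 for Ptgs2, -0.22 to 0.48 for Ptges, -0.39 to 0.39 for Ptgds and -0.22 to 0.25 for Ptger2, and log2 ratio differences from -0.59 to 0.67 for Ptgs2/Ptgs1 and -0.56 to 0.28 for Hpgds/Ptgds. Without Empty-lip 1 and Clod-lip 2 the values were -0.01 for Ptgs2, 0.66 for Ptgds, -0.14 for Ptger2, -0.09 for Ptgs2/Ptgs1 and -0.91 for Hpgds/Ptgds, and Ptger2 was -0.036 after quantile normalization. The cause was not tested. Ptgds and Ptger2 had no value with a filter at 5 FPKM. Ptgs1, Hpgds, Ptger4, Alox5, Alox5ap and Lta4h kept their direction in all 15 alternatives. Read depth was not derived, so counting error, largest for low genes such as Ptger2, is not in these errors.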
